A study of Mus musculus with 6 samples.

Results

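The immediate early genes of the Egr, Nr4a and Ier families, together with the phosphatase gene Dusp1, were measured by RNA sequencing in haematopoietic stem cells (HSCs) sorted from mouse bone marrow. The 10 genes were chosen by name: Egr1, Egr2, Egr3, Nr4a1, Nr4a2, Nr4a3, Ier2, Ier3, Ier5 and Dusp1. All 10 have a row among the 35275 genes of the FPKM table (reads scaled to gene length and to the library total), and 8 have one among the 18368 genes of the count table. The mutant libraries came from adult mice whose genotype the labels write as Ramp-/- and whose titles name a Ramp1 mutation, and the wild-type libraries from adult Ramp1+/+ mice, with 3 libraries in each group. Ramp1 encodes the accessory subunit that turns the receptor Calcrl into the receptor for the neuropeptide CGRP. Strain, sex and the exons removed are not given in the labels used here. Nor do they tie a library to its own animal, and p-values therefore reflect only how far these libraries differed.

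Immediate early genes are transcribed within minutes of a stimulus, from factors that are already present in the cell, and need no new protein synthesis. Growth factor and stress signals reach them through the kinase ERK and the serum response factor, and signals that raise cyclic AMP reach them through CREB, which binds cyclic AMP response elements. Egr proteins are zinc finger transcription factors, Nr4a proteins are orphan nuclear receptors, and Dusp1 removes phosphate from MAP kinases and so limits the signal. In mouse marrow Egr1 is known as a factor that holds HSCs in quiescence and in their niche, and the Nr4a receptors are known to restrain HSC proliferation and myeloid leukaemia.

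Promoter sequences are shown because CREB and serum response factor act there. Windows of 7 of the 10 genes came from the RefSeq promoter table (build GRCm38.p6, 250 bases before to 50 bases after the annotated start). The core of the cyclic AMP response element, TGACG, was searched on both strands, as were the full element TGACGTCA, which contains that core, the CArG box bound by serum response factor and the Egr motif GCGNGGGCG. The 5 windows printed here cover genes that shared a pattern across the libraries (Dusp1, Nr4a2, Ier3). Egr2 is shown for the highest ratio of mutant to wild-type reads among the 8 members in the count table. The windows also cover a gene that did not follow the others (Ier5). They lie at chr17:26508423-26508722 (minus strand, Dusp1), chr2:57123954-57124253 (minus strand, Nr4a2), chr10:67537619-67537918 (plus strand, Egr2), chr17:35821463-35821762 (plus strand, Ier3) and chr1:155099587-155099886 (minus strand, Ier5). Capitals mark TGACG on either strand and the CArG box, read 5′ to 3′ on the strand of the gene.
Dusp1: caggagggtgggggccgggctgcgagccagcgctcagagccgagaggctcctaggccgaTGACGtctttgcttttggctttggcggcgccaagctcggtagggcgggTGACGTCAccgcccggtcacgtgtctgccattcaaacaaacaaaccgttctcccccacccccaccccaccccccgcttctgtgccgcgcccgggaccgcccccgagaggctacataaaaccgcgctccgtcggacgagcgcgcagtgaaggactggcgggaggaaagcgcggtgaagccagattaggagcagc
Nr4a2: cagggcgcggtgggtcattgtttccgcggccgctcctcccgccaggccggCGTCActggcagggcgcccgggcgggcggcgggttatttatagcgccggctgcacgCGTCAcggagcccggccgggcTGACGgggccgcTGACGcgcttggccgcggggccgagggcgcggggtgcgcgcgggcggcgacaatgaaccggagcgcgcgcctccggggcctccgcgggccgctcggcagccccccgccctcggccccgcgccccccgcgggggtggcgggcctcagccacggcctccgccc
Egr2: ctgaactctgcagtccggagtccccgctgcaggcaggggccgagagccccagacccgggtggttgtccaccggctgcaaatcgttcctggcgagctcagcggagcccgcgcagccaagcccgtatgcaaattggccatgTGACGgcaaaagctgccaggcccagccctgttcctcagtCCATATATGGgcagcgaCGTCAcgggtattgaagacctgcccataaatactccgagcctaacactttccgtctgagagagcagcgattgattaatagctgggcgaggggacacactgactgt
Ier3: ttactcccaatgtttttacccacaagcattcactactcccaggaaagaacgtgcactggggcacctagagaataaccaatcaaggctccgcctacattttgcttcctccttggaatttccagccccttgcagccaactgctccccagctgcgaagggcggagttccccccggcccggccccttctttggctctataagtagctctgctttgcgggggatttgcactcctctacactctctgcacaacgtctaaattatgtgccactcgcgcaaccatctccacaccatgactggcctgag
Ier5: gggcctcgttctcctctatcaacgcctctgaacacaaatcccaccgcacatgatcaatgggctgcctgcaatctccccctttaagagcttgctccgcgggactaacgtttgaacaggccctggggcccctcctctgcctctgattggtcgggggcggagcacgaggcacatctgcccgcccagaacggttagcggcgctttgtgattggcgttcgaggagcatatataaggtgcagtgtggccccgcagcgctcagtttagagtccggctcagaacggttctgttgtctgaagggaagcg

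TGACG occurred in at least 1 window of 5 of the 7 genes searched, against 20.8% of all 32851 windows in the table. Egr1 was left out of the search, and Egr3 and Ier2 had no window. The motif counts therefore say nothing about Egr1, Egr3 or Ier2. The 7 genes searched are counted by gene, Egr2 with 5 windows and the others with 1 each. The background is counted by single window, so the rates are not strictly alike. Nr4a1, Nr4a2 and Nr4a3 each had 4 copies, Dusp1 had 3, counting its palindromic full element on both strands, and the Egr2 window shown had 2. At least 2 copies were present in 5.01% of all windows. The full element TGACGTCA was found in Dusp1 among the 7 genes and in 1.79% of all windows. A CArG box was found in Egr2, in 4 of its 5 windows, 3 of which overlap each other, and in 1.63% of all windows. GCGNGGGCG was found in Nr4a1 and Nr4a2, with a background of 5.55%. Ier3 and Ier5 held none of these motifs in their windows. These matches describe letters in short windows and were not tested as binding sites.

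The library totals ranged from 22796771 to 26734561 counted reads. Ramp1 itself had 1.35 to 3.53 FPKM in mutant libraries, against 88.3 to 91.4 FPKM in wild-type libraries, in keeping with the labels. The stem cell receptor gene Kit was abundant in both groups, with 368 ± 101 FPKM in mutant and 387 ± 69.7 FPKM in wild-type libraries (SD, n = 3 each). The libraries numbered 1 stood apart in both groups. They held 6137 (mutant) and 6527 (wild-type) reads of the Y-linked genes Ddx3y, Uty, Kdm5d and Eif2s3y, while the other 4 libraries held at most 2, and their Xist reads were 5 and 10, against 1456 to 3540 in the others. Number, sex and any batch that goes with them cannot be told apart.

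The 10 genes spanned a wide range of levels. On the FPKM scale, which corrects for gene length, the means over all 6 libraries ran in the order Ier2 (74.2), Ier3 (49.2), Dusp1 (39.9), Egr1 (21.2), Ier5 (8.27), Nr4a1 (2.76), Nr4a2 (2.29), Egr2 (0.0954), Egr3 (0.0234) and Nr4a3 (0.00499). Ier2 stood at the 93.8th percentile of the genes in the count table and Egr1 at the 76.5th. The ranges of Ier2 and Ier3 over the 6 libraries did not overlap, nor did those of Ier5 and Nr4a1 or of Nr4a2 and Egr2. Ier3 and Dusp1, Dusp1 and Egr1, Egr1 and Ier5, Nr4a1 and Nr4a2, and Egr2, Egr3 and Nr4a3 overlapped in their ranges, although Dusp1 exceeded Egr1 in 6 of 6 libraries. Within the families the highest levels were those of Egr1, of Nr4a1 and Nr4a2, and of Ier2 and Ier3. The 7 genes with enough reads for a test were compact, with a median genomic span of 3276 bases against 19997 for all 14443 genes tested.

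**Figure D1:**
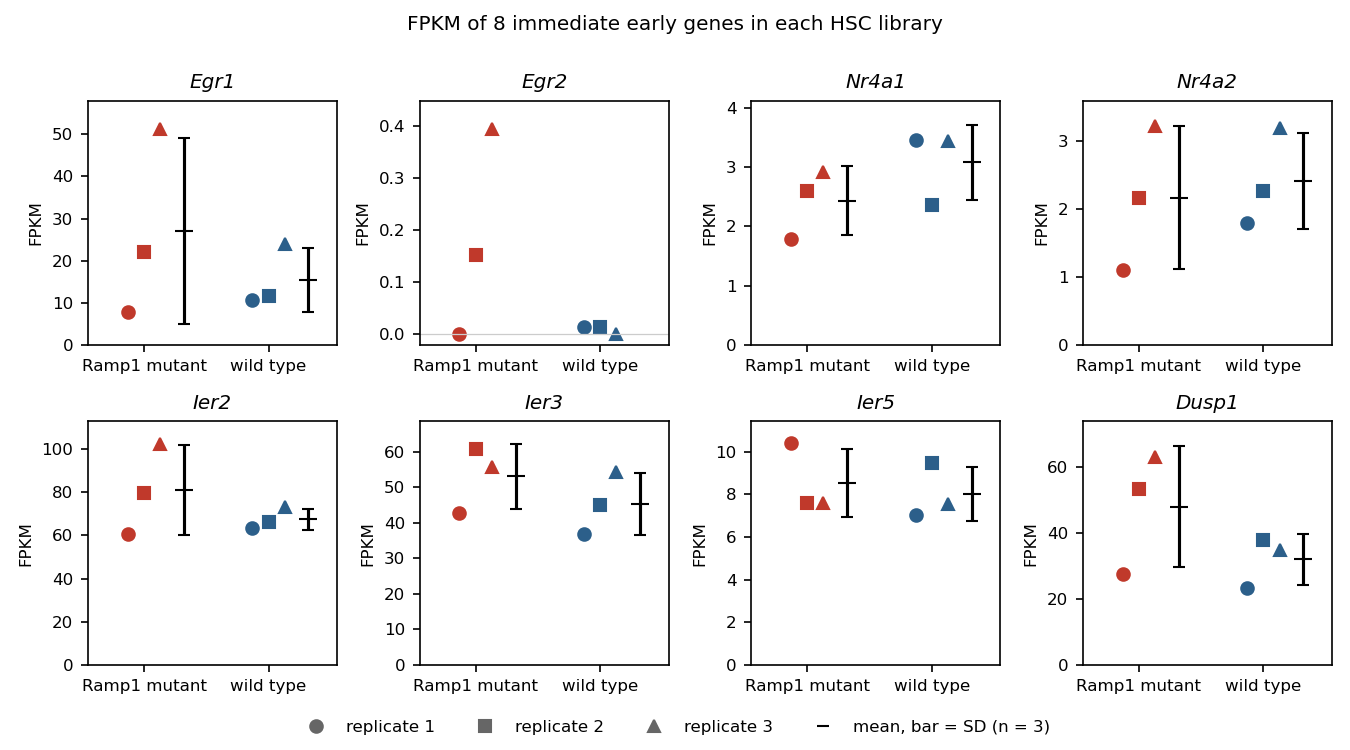
FPKM (y axis, linear) of 8 immediate early genes in each library, with Ramp1 mutant libraries left and wild-type libraries right; marker shapes give the replicate number, and black bars the mean and SD of 3 libraries (not drawn for Egr2, which is at 0 in some). In Egr1 the mutant libraries spread from 7.85 to 51.3 FPKM, on both sides of the wild-type range of 10.6 to 24.0 FPKM.

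None of the 7 tested genes passed the test of a difference between mutant and wild-type HSCs. The edgeR quasi-likelihood test, with Benjamini-Hochberg adjustment over 14443 genes, called 0 of the 7. Of all genes 0.0208% passed, with 0.00692% higher and 0.0138% lower, Ramp1 among the lower ones. At an unadjusted p under 0.05 the count was also 0 of 7 with edgeR, against 3.99% of all genes, and DESeq2 had 1 of 7 unadjusted (Dusp1) and 0 adjusted. That unadjusted edgeR count was 1 (Dusp1) with the replicate block, with a term for the libraries numbered 1, and without both of those libraries. It was 3 (Egr1, Ier2 and Dusp1) without mutant replicate 1. For DESeq2 and these other edgeR settings the share of all genes is not given here, so these counts have no background beside them. Values were higher in mutant cells for 5 of the 7 genes and lower for 2, while 50.1% of all genes were above 0. The median of their log2 fold changes was 0.23, and that of all genes was 3.0e-04. The mutant and wild-type libraries overlapped for all 7 genes, whereas they did not overlap for 10.3% of all genes.

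Egr1 (ENSMUSG00000038418, mm10 chromosome 18, 34859823 to 34864984, plus strand), the most abundant Egr factor in these cells, had the highest fold change of the tested members and the widest spread. It had 7.85, 21.9 and 51.3 FPKM in mutant libraries 1 to 3, against 10.6, 11.5 and 24.0 FPKM in wild-type libraries 1 to 3, from 802 to 5711 reads. The mutant group held both the lowest and the highest library of the 6. The fitted log2 fold change was 0.83 (SE 0.61; edgeR adjusted p = 0.999), with a 95% interval of -0.59 to 2.25. It rested on mutant replicate 3: without that library it was -0.039, and without mutant replicate 1 it was 1.28. Its standard deviation within groups, 1.07 on the log2 CPM scale (CPM being reads scaled to the library total), lay at the 92.9th percentile of all tested genes, whose median was 0.24.

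Egr2 and Egr3, close relatives with a zinc finger domain like that of Egr1, were at the edge of detection. Egr2 (ENSMUSG00000037868, chromosome 10, 67535475 to 67542188, plus strand) had 0, 12 and 29 reads in mutant libraries 1 to 3, against 1, 1 and 0 reads in wild-type libraries. The summed reads, 41 in mutant and 2 in wild-type libraries, gave 0.552 CPM in mutant cells (exact 95% Poisson interval 0.396 to 0.748) and 0.0272 in wild-type cells (0.00329 to 0.0982). Their ratio was 20.3 (exact Clopper-Pearson interval 5.27 to 173). These intervals cover counting error only, while the mutant libraries ranged from 0 to 29 reads, with 29 of the 41 in mutant replicate 3. Egr2 entered the count table only through its 12 reads in mutant replicate 2. A gene with reads in wild-type libraries alone could not enter, so the ratio and its interval give no test of a genotype difference. Egr2 did not reach the filter on low counts. When the filter was dropped, edgeR gave a log2 fold change of 4.10, a value that depends on the prior count, with an adjusted p of 1.0. In the authors' deposited table Egr2 had a log2 fold change of 4.34 and an adjusted p of 0.948. Egr3 was listed at 0 FPKM in all mutant libraries and at 0.0836, 0.0568 and 0 FPKM in wild-type libraries 1 to 3. It is not in the count table, which holds only genes with reads in mutant replicate 1 or 2, so a gene without reads in both of them could not enter the test.

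Dusp1 (ENSMUSG00000024190, chromosome 17, 26505590 to 26508519, minus strand), whose protein inactivates p38, JNK and ERK, had the lowest unadjusted p of the tested members. It had 27.4, 53.1 and 62.9 FPKM in mutant libraries 1 to 3, against 23.2, 37.8 and 34.7 FPKM in wild-type libraries 1 to 3. Mutant replicates 2 and 3 lay above all wild-type libraries, and mutant replicate 1 lay within their range. The log2 fold change was 0.59 (SE 0.32; edgeR adjusted p = 0.999; 95% interval -0.14 to 1.32). It stayed above 0 without each library in turn, between 0.33 without mutant replicate 3 and 0.88 without mutant replicate 1. With the libraries numbered 1 left out it was 0.69 (SE 0.15; edgeR adjusted p = 1.0), and between the libraries numbered 1 alone Dusp1 was 1.18 times as high in the mutant.

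The Ier genes are small, with few exons, and are induced alongside the Egr factors. Ier2 (ENSMUSG00000053560, chromosome 8, 84661331 to 84662852, minus strand), a nuclear protein, had 60.7, 79.5 and 102 FPKM in mutant libraries 1 to 3, against 63.6, 66.1 and 73.0 FPKM in wild-type libraries 1 to 3. Mutant replicate 1 was the lowest of the 6 libraries and mutant replicates 2 and 3 the highest. Its log2 fold change was 0.26 (SE 0.19; edgeR adjusted p = 0.999; 95% interval -0.17 to 0.70), and it was 0.046 without mutant replicate 3 and 0.45 without mutant replicate 1.

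Ier3 (ENSMUSG00000003541, chromosome 17, 35821684 to 35822923, plus strand), a survival gene also induced by NF-kB, had 42.9, 60.7 and 55.5 FPKM in mutant libraries, against 36.9, 44.9 and 54.3 FPKM in wild-type libraries 1 to 3. Replicate 1 was the lowest library of each group. The log2 fold change was 0.23 (SE 0.19; edgeR adjusted p = 0.999; 95% interval -0.21 to 0.67). Leaving out mutant replicate 1 gave 0.38, leaving out mutant replicate 2 gave 0.12, and leaving out wild-type replicate 1 gave 0.096.

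Ier5 (ENSMUSG00000056708, chromosome 1, 155096361 to 155099636, minus strand), a regulator of the heat shock factor Hsf1, lies 63.9 Mb from Ramp1 on the same chromosome. It had 10.4, 7.58 and 7.60 FPKM in mutant libraries, against 7.03, 9.45 and 7.55 FPKM in wild-type libraries 1 to 3. Unlike the other tested genes, its highest library was mutant replicate 1. The log2 fold change was 0.09 (SE 0.19; edgeR adjusted p = 0.999; 95% interval -0.34 to 0.52), and it was -0.061 without mutant replicate 1 and -0.0085 without wild-type replicate 1.

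The Nr4a genes went the other way in their group means, without passing the test. Nr4a1 (ENSMUSG00000023034, chromosome 15, 101266846 to 101274792, plus strand), also called Nur77, had 1.79, 2.60 and 2.92 FPKM in mutant libraries, against 3.46, 2.36 and 3.44 FPKM in wild-type libraries 1 to 3. Its log2 fold change was -0.33 (SE 0.29; edgeR adjusted p = 0.999; 95% interval -1.01 to 0.34). It was -0.056 (SE 0.33) without the libraries numbered 1 and -0.14 without mutant replicate 1.

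Nr4a2 (ENSMUSG00000026826, chromosome 2, 57106830 to 57124003, minus strand), also called Nurr1, had 1.11, 2.17 and 3.22 FPKM in mutant libraries, against 1.79, 2.26 and 3.19 FPKM in wild-type libraries 1 to 3. Mutant replicate 1 was the lowest of the 6 libraries, and the highest of each group were alike. The log2 fold change was -0.15 (SE 0.41; edgeR adjusted p = 0.999; 95% interval -1.10 to 0.81), and it was 0.18 without mutant replicate 1 and 0.093 without wild-type replicate 3. Nr4a3 was listed at 0 FPKM in all mutant libraries and at 0, 0 and 0.0299 FPKM in wild-type libraries 1 to 3, and is not in the count table either.

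**Figure D2:**
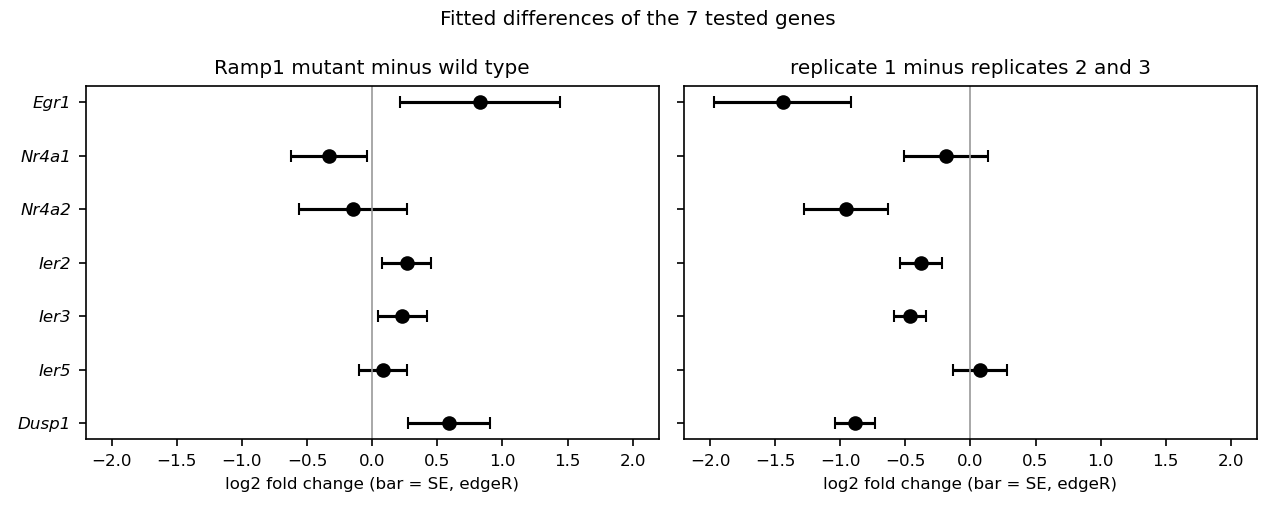
Fitted log2 fold changes (x axis) of the 7 tested genes with their standard errors from edgeR, for Ramp1 mutant minus wild type (left) and for replicate 1 minus replicates 2 and 3 with genotype in the model (right). Egr1 and Dusp1 have the highest values on the left, 0.83 and 0.59, and Egr1 and Nr4a2 the lowest on the right, -1.44 and -0.96.

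The libraries numbered 1 were lower than those numbered 2 and 3 for most of these genes, in both genotypes. Both libraries numbered 1 lay below the other 4 for Egr1, Nr4a2, Ier2, Ier3 and Dusp1, which is 5 of the 7 genes, against 8.52% of all genes. With genotype in the model, Egr1 had a log2 fold change of -1.44 (SE 0.52), Nr4a2 -0.96 (SE 0.32), Dusp1 -0.89 (SE 0.15), Ier3 -0.46 (SE 0.12) and Ier2 -0.38 (SE 0.16). Nr4a1 had -0.18 (SE 0.32) and Ier5 0.07 (SE 0.21). Without mutant replicate 1, Egr1 was -0.75, Nr4a2 -0.63 and Ier2 -0.15, and without wild-type replicate 1, Egr1 was -2.27 and Ier2 -0.63. Values were below 0 for 6 of the 7 genes, against 51.1% of all genes. None passed the edgeR test after adjustment, where 0.00692% of all genes did, the single gene being Xist. The adjusted p was lowest for Dusp1, at 0.410. At an unadjusted p under 0.05 edgeR had 5 of 7, against 7.05% of all genes. That count was 1 (Dusp1) without mutant replicate 1 and 2 (Ier3 and Dusp1) without wild-type replicate 3. For those settings with a library left out, the share of all genes is not given here. DESeq2 called 1 of the 7 after adjustment, Dusp1 (log2 fold change -0.89, adjusted p = 5.17e-05), in a fit that called 147 genes. Low values of immediate early genes in these libraries were known when the members were chosen, and the counts are not independent evidence.

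**Figure D3:**
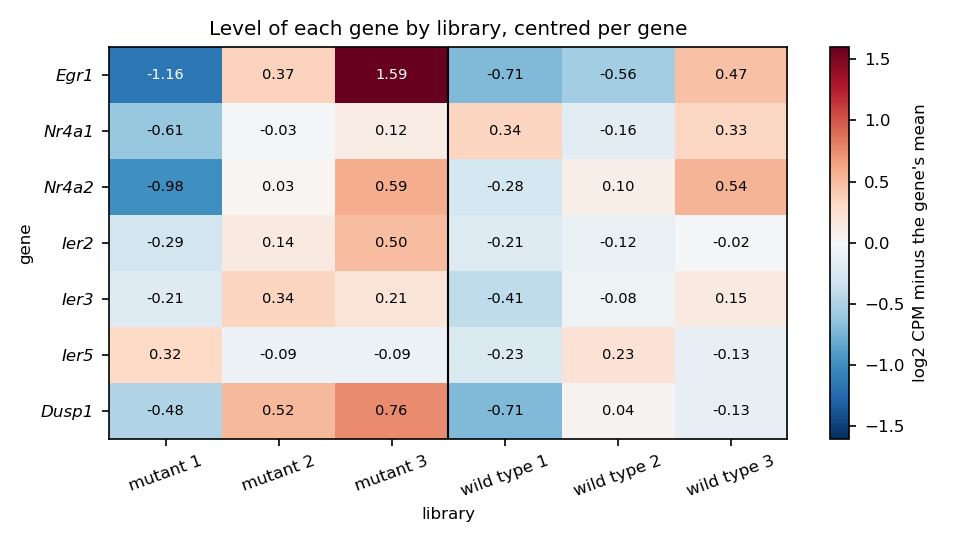
Level of the 7 tested genes (rows) in each library (columns, mutant left of the black line and wild type right), as log2 CPM minus the mean of the gene over the 6 libraries; red is above and blue below that mean. Mutant replicate 1 is the lowest library of 4 genes and mutant replicate 3 the highest of 4, while Ier5 runs the other way in mutant replicate 1 (0.32).

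The spread among mutant libraries was larger than among wild-type libraries for 6 of the 7 genes, Ier5 being the exception, on the log2 CPM scale. In Egr1 the standard deviation was 1.38 in mutant and 0.64 in wild-type libraries, in Ier2 it was 0.40 and 0.10, and in Dusp1 0.66 and 0.39 (n = 3 each). In Ier3 the values were nearly equal, 0.285 in mutant and 0.279 in wild-type libraries. The difference in spread was not tested, and the share of all genes with a wider mutant spread is not given here. Replicate 1 was the lowest mutant library for 6 of 7 genes, all but Ier5, and the lowest wild-type library for 6 of 7, all but Nr4a1. The share of all genes with replicate 1 lowest in a group is not given here either. A model in which the genotype effect could differ between the libraries numbered 1 and the others called 0 of the 7 genes with edgeR after adjustment. Its estimate was -1.51 for Egr1 (SE 0.84; edgeR adjusted p = 1.0). Egr1 was 0.738 times as high in the mutant as in the wild-type library numbered 1, and 1.91 and 2.13 times as high in those numbered 2 and 3. These are ratios of single libraries matched by number, and the numbers were not taken as pairs.

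None of the other genes of this response passed the test between genotypes. Of 28 other immediate early genes listed, 25 were tested and none was called in either direction, with 20 higher and 5 lower values in mutant cells and a median log2 fold change of 0.31. At an unadjusted p under 0.05 edgeR had 3 of the 25 (Fos, Junb and Jund), against 3.99% of all genes. The 4 with the highest levels were Myc, Mcl1, Klf10 and Junb. The growth regulator gene Myc had 160 ± 52.2 FPKM in mutant and 174 ± 20.7 FPKM in wild-type libraries, and Mcl1, a survival gene of the Bcl2 family, 101 ± 6.55 and 92.7 ± 4.85 FPKM (SD, n = 3 each). Klf10, a zinc finger gene induced by TGF-beta, had 98.1 ± 10.1 FPKM in mutant and 88.7 ± 7.58 FPKM in wild-type libraries. Junb, an AP-1 subunit, had log2 fold changes of 0.75 between genotypes and -0.75 for the libraries numbered 1, and neither passed. For the libraries numbered 1, values were below 0 for 19 of the 25.

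Genes that carry the signal to these promoters were also not called. Of 17 tested genes of the Ras, MEK and ERK chain, 0 were called, with 9 higher and 8 lower values and a median log2 fold change of 0.0045. Rps6ka1, a kinase gene of this chain, had 99.1 ± 11.5 FPKM in mutant and 104 ± 6.71 FPKM in wild-type libraries (SD, n = 3 each), and Mknk2 and Map2k1 were also among its most abundant genes. Of 14 genes for serum response factor, its partners and the CREB group, 0 were called, with 12 higher and 2 lower values and a median of 0.08. The most abundant, Atf1, a relative of CREB, had 41.7 ± 1.69 FPKM in mutant and 40.5 ± 4.84 FPKM in wild-type libraries, followed by Crtc2, Elk3 and Mkl1. Among 12 tested feedback inhibitors and other dual-specificity phosphatases 0 were called, with 6 higher and 6 lower values and a median of -0.030. The most abundant were Dusp2, Dusp6, Spred1 and Dusp7. Dusp2, which like Dusp1 acts on MAP kinases in the nucleus, had 103 ± 8.01 FPKM in mutant and 99.8 ± 5.52 FPKM in wild-type libraries. Dusp6, the ERK-specific phosphatase, had 37.0 ± 8.42 and 36.9 ± 8.40 FPKM, with both libraries numbered 1 at 27.3 FPKM. Nab1 and Nab2, corepressors that bind Egr proteins, had log2 fold changes of -0.058 and 0.03, and Rxra and Rxrb, receptors with which Nr4a1 and Nr4a2 pair, -0.71 and -0.13. None of these 4 was called. All counts in these lists were made with edgeR at the adjusted threshold.

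Within each genotype, the summed neutrophil markers ranked the libraries in the same order as the summed immediate early genes. The summed level of the 10 genes was 152, 228 and 286 FPKM in mutant libraries 1 to 3, against 147, 174 and 200.3 FPKM in wild-type libraries 1 to 3. The summed level of 11 neutrophil markers was 181, 813 and 1146 FPKM in mutant libraries and 31.9, 280.2 and 826 FPKM in wild-type libraries 1 to 3. All 11 had fitted log2 fold changes above 0 between mutant and wild type, against 50.1% of all genes. All 11 were below 0 for the libraries numbered 1, against 51.1% of all genes. None was called by edgeR in either comparison, and 0 had an unadjusted edgeR p under 0.05 between genotypes. Single libraries could differ: Mmp8 had 3.52 FPKM in mutant replicate 1 and 1.62 FPKM in mutant replicate 2. The defining marker Ly6g, the lowest of the list, was at 0 in both libraries numbered 1 and reached 3.55 FPKM in mutant replicate 3. Other markers were present in them: S100a8 had 75.9, 355 and 445 FPKM in mutant libraries 1 to 3, against 11.8, 99.7 and 288 FPKM in wild-type libraries 1 to 3. The summed level of 8 heat shock genes was 913, 1283 and 1786 FPKM in mutant libraries and 1114, 1670 and 1288 FPKM in wild-type libraries. All 8 had fitted log2 fold changes below 0 for the libraries numbered 1, and edgeR called none of them. Hspe1 still had 78.4 FPKM in wild-type replicate 1, above its 70.6 FPKM in wild-type replicate 3. The wild-type libraries stood in another order than for the immediate early genes. Summed monocyte and macrophage markers ranged from 503 to 633 FPKM in mutant and from 492 to 568 FPKM in wild-type libraries, nearly all of it Lyz2. Without Lyz2 the sum was 10.2, 19.8 and 28.4 FPKM in mutant libraries 1 to 3, against 19.7, 18.6 and 17.1 FPKM in wild-type libraries 1 to 3. Of 8 tested markers of these cells, 7 had log2 fold changes below 0 for the libraries numbered 1, with a median of -0.90. Between mutant and wild type, 5 of the 8 had log2 fold changes above 0, and edgeR called none of the 8 in either comparison. Of 11 stem cell markers, 10 had log2 fold changes above 0 for the libraries numbered 1, as did 7065 of all 14443 genes tested. The median of the 11 was 0.18, and edgeR called none. Kit, 1 of the 11, had 460, 385 and 260 FPKM in mutant libraries 1 to 3. In wild-type libraries 1 to 3 it had 461, 323 and 377 FPKM. Summed erythroid markers were highest in the libraries numbered 1, with 209, 53.2 and 65.8 FPKM in mutant libraries 1 to 3. In wild-type libraries 1 to 3 they were 55.2, 47.9 and 10.5 FPKM. B cell sums fell from library 1 to 3: 49.6, 44.5 and 36.3 FPKM in mutant and 42.7, 39.7 and 38.7 FPKM in wild-type libraries. Sums for progenitors, megakaryocytes, and T and NK cells followed the order of the immediate early genes in neither genotype. The part of these cells and genes in the pattern was not tested. In such bulk samples, fewer cells of a type and less RNA per cell cannot be told apart.

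**Figure D4:**
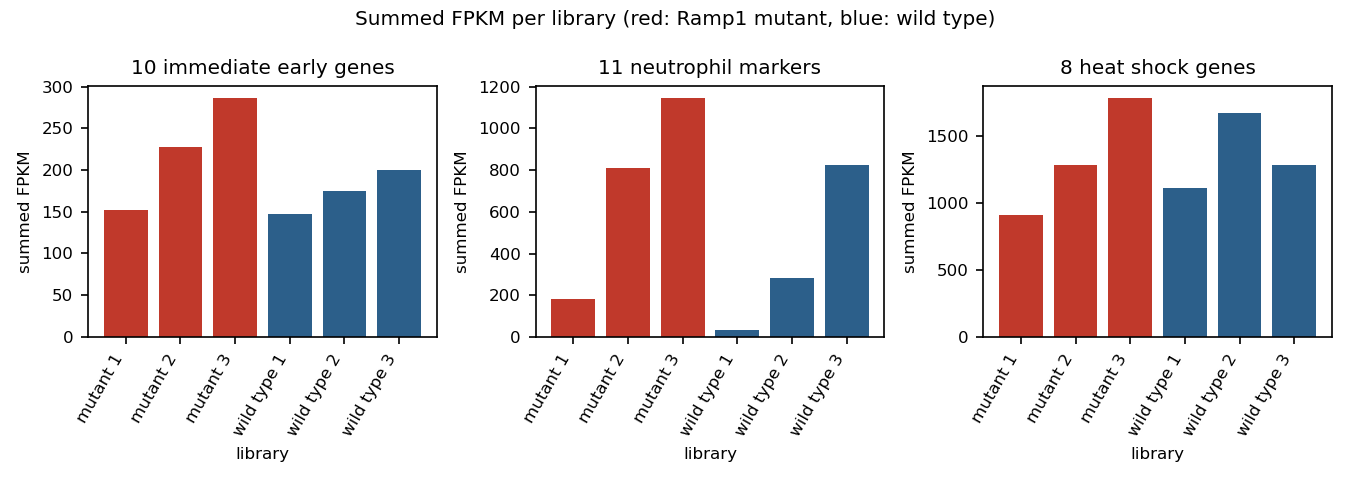
Summed FPKM (y axis, from 0) in each library for the 10 immediate early genes, the 11 neutrophil markers and the 8 heat shock genes, with Ramp1 mutant libraries (red) left of wild-type libraries (blue). The lowest sums of each group stand in the libraries numbered 1 in all 3 panels, and the highest in mutant replicate 3, at 286, 1146 and 1786 FPKM.

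The genes most like the members in pattern were sought among 8374 other genes with at least 5 FPKM on average. Likeness was the root mean square difference, over the 6 libraries, between the centred log2 CPM of a gene and the average profile of the 7 tested members. That average was -0.49, 0.18 and 0.52 in mutant libraries 1 to 3 and -0.31, -0.079 and 0.17 in wild-type libraries 1 to 3. The closest were Alg14 (0.10), Chordc1 (0.13), Armc6 (0.14), Ptplb (0.14), Epdr1 (0.14) and Lin9 (0.14). Alg14 encodes a subunit of a glycosyltransferase of the endoplasmic reticulum, Chordc1 a protein that binds Hsp90, and Lin9 a subunit of the DREAM complex. Among the members themselves the distance to the average ran from 0.12 for Ier2 to 0.59 for Egr1. None of these 6 genes was called between genotypes by edgeR.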

How the data were processed

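RNA from about 2000 sorted HSCs per library was sequenced. Tools listed in the submitters' processing notes, without roles, are HTSeq 0.6.1, STAR, CASAVA and DESeq2, with build mm10. The authors deposited raw read counts per gene, counts divided by size factors (a signal, not used), FPKM, log2 fold changes and p-values, per the file headers. Of their own fold changes and p-values, those of Egr2 are quoted. Strand handling: not given in the sources used here. No other gene of the count table overlaps a member.

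Counts were tested with edgeR 4.0.16 in R 4.3.3 (TMM, filterByExpr with a minimum count of 10, quasi-likelihood F test, Benjamini-Hochberg over 14443 genes, adjusted p under 0.05, two-sided). Standard errors were derived from the log2 fold change and its F statistic. Other settings used DESeq2 1.42.0 and limma 3.58.1 on log2 FPKM. No pair of libraries of the same genotype agreed within sampling noise.

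All members were named. From each list up to 4 genes with the highest mean FPKM were named, except where a gene is not reported here. Members, lists and comparisons were chosen with earlier results of these data known. The model with differing genotype effects was added after seeing the data. Egr and Nr4a relatives with no tested row were not analysed here.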

Additional observations from a re-analysis of the deposited data

How the results depend on the processing

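The number of the 7 genes called between mutant and wild type was 0 under every setting run. The settings were other scalings, no filter, DESeq2, limma, each library left out and the replicate block. A term for the libraries numbered 1, which held the Y-linked reads, was also fitted, as was leaving both of them out. Over all genes, the 1 higher call was 2 with no filter and with limma on either pseudocount and 18 with DESeq2, and 1 to 2 when each library was left out. The 2 lower calls were 20 with DESeq2, 1 with limma at a pseudocount of 0.1 and 1 with the replicate block. They were 1 with the term for the libraries numbered 1, 1 without those libraries, and 1 to 4 with each library left out. The replicate block changed no call of a member. The numbers were not taken as pairs: correlations of same-numbered deviations were 0.14, 0.0018 and -0.094, and not every library correlated best with its own number. The libraries numbered 1 also share their Y-linked and Xist reads. For replicate 1 minus replicates 2 and 3, the 1 called gene was 6 with no filter, 147 with DESeq2, 0 with limma at a pseudocount of 1, and 0 to 5 with each library left out, and members called were 1 with DESeq2 (Dusp1). With each library left out, Egr1 ranged from -0.039 to 1.295 and Nr4a2 from -0.56 to 0.18. Signs turned for Egr1 without mutant replicate 3 (-0.039), for Nr4a2 without mutant replicate 1 (0.18) or wild-type replicate 3 (0.093), and for Ier5 without mutant replicate 1 (-0.061), wild-type replicate 1 (-0.0085) or the libraries numbered 1 (-0.16), against 0.24 at most. In the replicate 1 comparison they turned for Nr4a1 (0.24) and Ier5 (-0.30) without mutant replicate 1, in ranges of -0.67 to 0.24 and -0.30 to 0.40. The cause was not tested. Scaling moved the median of all genes by less than 0.1. Low read numbers limited Egr2, Egr3 and Nr4a3.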

Other observations

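Among the feedback inhibitors of ERK signalling, Spry1, chosen after its values were seen, was the 1 tested gene with an unadjusted p under 0.05 between genotypes. It had 1.57, 1.52 and 2.56 FPKM in mutant libraries 1 to 3, against 7.92, 3.43 and 3.52 FPKM in wild-type libraries 1 to 3, and the groups did not overlap, as for 10.3% of all genes. Its log2 fold change was -1.39 (SE 0.40; edgeR adjusted p = 0.999), and it did not pass over all genes. The AP-1 gene Fos, also chosen after its values were seen, had 2.41, 31.4 and 46.8 FPKM in mutant libraries 1 to 3, against 1.52, 7.55 and 7.67 FPKM in wild-type libraries 1 to 3. Its log2 fold change was 2.28 (SE 0.96; edgeR adjusted p = 0.999). Its order of libraries within each group was that of the summed Egr, Nr4a, Ier and Dusp1 genes.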
